A study of Arabidopsis thaliana with 18 samples.

Results

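Shoots of Arabidopsis thaliana treated with caesium were compared directly with shoots starved of potassium, 3 samples against 3, out of the 18 samples of the series. All plants were of the ecotype ws-2 at growth stage 3.90, and each sample pooled shoots of 40 to 50 plants and was read on 1 Affymetrix ATH1 array. The potassium-starved plants had a tenth-strength Murashige and Skoog solution from which all potassium was left out. The caesium-treated plants had a tenth-strength solution of the same kind with 2 mM caesium. The 3 control shoot samples carry no treatment text in the labels, and here they serve as a reference level and lend their spread to the test. The 6 arrays were chosen by their labels alone, so no measured value entered the choice. Whether the numbered samples of a group were grown apart is not in the labels, and the p-values therefore cover the spread among these samples, which may be technical.

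Potassium is the main cation of plant cells, where it sets osmotic pressure, balances charge and activates many enzymes. Caesium is a close chemical relative that plants do not need. It enters roots through potassium transporters and cation channels, blocks potassium channels and, at high supply, is toxic and lowers growth. The direct contrast asks where the shoot transcriptomes of caesium-treated and potassium-starved plants part.

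The values are signals on a linear scale, and all differences below are caesium-treated minus potassium-starved means of log2(signal + 16), each with its standard error. A positive difference is thus a higher level in caesium-treated shoots. Probe sets with a mean above the 40th percentile, a signal of about 26.7, were tested, which left 13647 of 22746. Of these, 7355 carried the name of 1 gene, and 1068 of these a name other than a locus code; the other probe sets are in the counts only. Median signals of the 3 caesium-treated arrays were 45.2, 43.0 and 45.4, and those of the 3 potassium-starved arrays 39.5, 33.0 and 38.9, while the control arrays had 39.9 to 42.2. Potassium-starved replicate 2 thus had the lowest median of the 9, and it also got the lowest array weight in limma, 0.314. Correlations between arrays, over all probe sets tested, lay between 0.931 and 0.954 within the potassium-starved group, between 0.938 and 0.960 within the caesium-treated group and between 0.811 and 0.930 across them.

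The shoots differed widely. In the limma fit, 3885 of the 13647 probe sets (28.5%) passed an adjusted p of 0.05, of which 2558 (18.7% of those tested) were higher in caesium-treated shoots and 1327 (9.72%) were higher in potassium-starved shoots. The 3 arrays of one treatment did not overlap the 3 of the other in 45.0% of all probe sets tested, and in 3833 of the 3885. An unadjusted p under 0.05 was met by 5616 probe sets (41.2%). Probe sets that passed and differed 2-fold or more numbered 1122 (8.22%), 682 of them higher in caesium-treated and 440 in potassium-starved shoots. At 4-fold or more on the log2 scale used, 17 were higher in caesium-treated and 70 in potassium-starved shoots. The constant added to the signals shrinks the differences of dim genes in either direction, so these counts depend on it. Whether the balance at 4-fold holds with another constant or another array level was not tested.

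The median difference over all probe sets tested was 0.13, so the balance of the directions depends on how arrays are set to a common level. With each array centred on its median, the median difference became -0.07, and 1532 probe sets (11.2%) were higher in caesium-treated shoots and 2155 (15.8%) in potassium-starved shoots, so 41.6% of calls were on the caesium side in place of 65.8%. Quantile normalization gave a median of 0.02, with 1944 (14.2%) and 1630 (11.9%), or 54.4% of calls on the caesium side. With the replicate number as a block 5359 passed (39.3%), 3534 (25.9%) of them higher in caesium-treated and 1825 (13.4%) in potassium-starved shoots. Of the 3885 probe sets, 2859 kept their direction and passed after centring and 3036 after quantile normalization. The count also leaned on single arrays. It was 2102, 2576 and 2411 without caesium-treated replicates 1, 2 and 3 in turn and 2261 without potassium-starved replicate 2, and 1710 probe sets passed in all 9 fits that left out 1 shoot array. A group whose 3 signals all lay below the floor of 26.7 passed through the other groups, and its difference is then a value on the log2(signal + 16) scale that understates the ratio; this holds for ndhH, AT1G13730, SWEETIE, BZIP61, UGT85A4, Cpn60beta3, XPO1B and UBP26 in potassium-starved shoots and for AT1G21550, AT3G52740 and TET9 in caesium-treated shoots. The gene-by-gene statements below give values per array, and list counts should be read beside the shares of 18.7% and 9.72% and the median of 0.13 over all probe sets tested. Lists hold named probe sets only. Of the 7355 named probe sets tested, 1182 were higher in caesium-treated shoots and 794 in potassium-starved shoots.

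**Figure D1:**
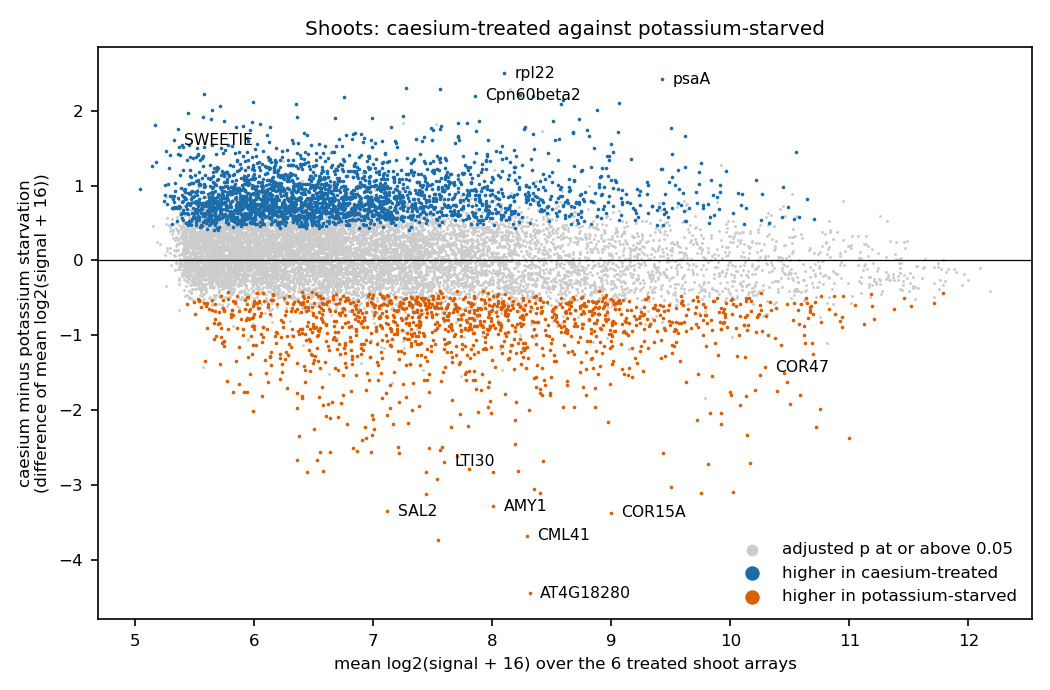
Difference between caesium-treated and potassium-starved shoots (vertical axis, log2 scale) against the mean level over the 6 treated arrays (horizontal axis, log2 scale) for 13647 probe sets. Blue and orange points passed an adjusted p of 0.05; the orange points reach down to -4.45, while the blue points end at 2.51.

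The 12 largest differences in each direction were taken among named probe sets that passed and whose treated groups did not overlap, so that separation is a matter of the choice. The control arrays entered the choice through the filter and the spread in the test, but not through the difference itself. Control arrays too lay apart from the potassium-starved arrays, on the caesium-treated side. The exception was rpl14, where 1 control array lay among the potassium-starved ones. The largest difference was that of AT4G18280, a gene with no other name in the annotation used. Its signals were 1886, 1384 and 1222 in potassium-starved shoots, 60.5, 46.7 and 50 in caesium-treated shoots and 76.3, 56 and 57.6 in control shoots, a difference of -4.45 ± 0.19 (adjusted p = 1.57e-06). AT1G58420 read 801, 795 and 461 under potassium starvation, 37.5, 36 and 31.9 under caesium and 36.2, 36.4 and 38.6 in controls (-3.74 ± 0.20). In both genes the caesium-treated and control arrays lay side by side, far below every potassium-starved array. Other locus codes among the 12 largest were AT2G32190 (-3.13), AT4G19200 (-3.11), AT2G23120 (-3.09), AT3G47380 (-2.92), AT5G52390 (-2.83) and AT1G21550 (-2.82), with adjusted p of 0.00185 or below. AT2G23120 reached 3619, 2948 and 2573 in potassium-starved shoots against 393, 382 and 261 in caesium-treated shoots.

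**Figure D2:**
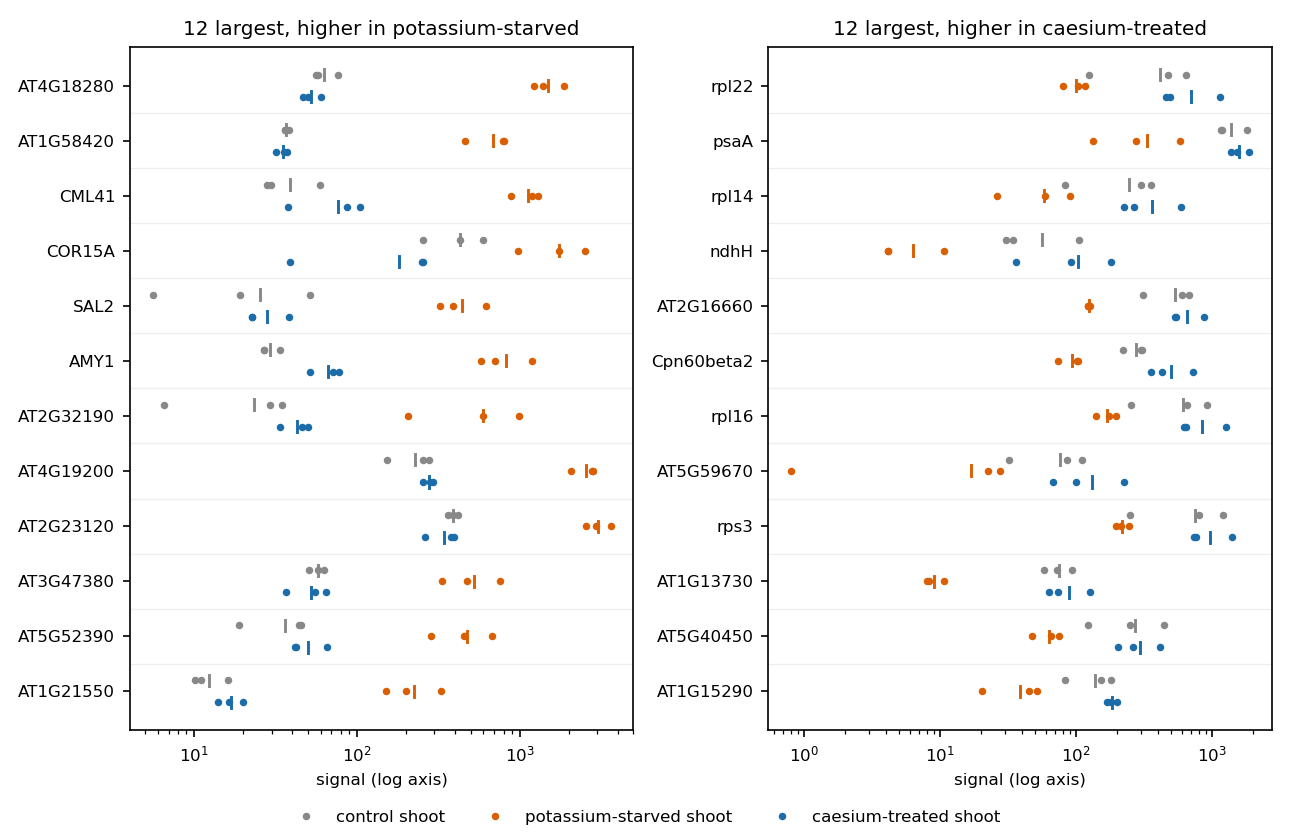
Signals on each of the 9 shoot arrays (points, log axis) and group means (ticks) for the 12 genes with the largest difference in each direction. In the genes higher in potassium-starved shoots those arrays lie above the other 6; in the genes higher in caesium-treated shoots they lie below the other 6, apart from 1 control array of rpl14.

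Calcium-binding proteins of the calmodulin-like family, which read cellular calcium signals, were part of this group. CML41, a calmodulin-like protein of plasmodesmata, read 1186, 1299 and 880.2 in potassium-starved, 37.8, 105 and 86.8 in caesium-treated and 29.8, 59.5 and 28.1 in control shoots (-3.68 ± 0.31, adjusted p = 0.000118). CML38 read 245, 256 and 96.3 against 47.4, 31.2 and 19, with controls at 24.6, 32.9 and 11.9 (-2.08 ± 0.35). CML23 read 55, 123 and 31.7 against 31, 22 and 10.7, so that its groups nearly touched (adjusted p = 0.0478), and it passed in 2 of the 9 fits without 1 array. In all, 3 of 5 calmodulin-like genes tested were higher in potassium-starved shoots and 0 in caesium-treated shoots, with a list median of -1.10. The list's median gene length was 975 bases. Of all nuclear genes up to 1000 bases, 29.5% were higher in potassium-starved shoots. CML42 (-0.08) and CML30 (0.02) did not pass. Among glutamate receptor-like channels, which carry calcium and other cations, GLR3.3 went the other way, at 43.1, 27.4 and 44.7 in potassium-starved and 70.9, 86.1 and 88.9 in caesium-treated shoots (0.86 ± 0.18, adjusted p = 0.00692); it was the 1 call among 5 tested channels of that kind and of the cyclic nucleotide-gated kind. In both CML41 and CML38 the caesium-treated arrays overlapped the controls, with the potassium-starved arrays alone above.

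Genes of the cold and dehydration response, many of them targets of abscisic acid, parted the treatments too. COR15A, a chloroplast protein that protects membranes from freezing, read 984, 2531 and 1736 in potassium-starved shoots, 256.5, 38.8 and 251 in caesium-treated shoots and 433, 257 and 597 in controls (-3.38 ± 0.57, adjusted p = 0.00328). The caesium-treated arrays here lay below every control array, by a hair for replicate 1, and the potassium-starved arrays above. The dehydrin COR47 had the same order, with 2524, 1939 and 1743 under potassium starvation, 1366, 937 and 1594 in controls and 716, 711 and 821 under caesium (-1.43 ± 0.21). LTI30, another dehydrin, stood at 249, 1029 and 417 in potassium-starved shoots, while caesium-treated shoots (46.5, 45 and 99.5) and controls (38.3, 35.2 and 69.9) overlapped (-2.69 ± 0.44). COR15B, the close copy of COR15A, did not pass: its potassium-starved signals of 378, 379.7 and 448 and its caesium-treated signals of 491, 296 and 385 overlapped, and both groups lay below its controls of 1041, 658 and 784. So 3 of 4 tested genes were higher in potassium-starved shoots, with a median of -2.06, in each of the 9 fits without 1 array.

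Sugar and starch genes showed single steep differences. AMY1, a secreted alpha-amylase known from senescing leaves, read 1197, 577 and 702 in potassium-starved shoots, 51.8, 71.6 and 77.9 in caesium-treated shoots and 34, 26.8 and 27 in controls (-3.28 ± 0.25, adjusted p = 6.61e-05). Every caesium-treated array was above every control array and far below the potassium-starved arrays. SAG29, the sucrose exporter SWEET15 of ageing leaves, read 278, 449 and 253 against 47.8, 20 and 159, with controls at 9.9, 6.8 and 5.6 (-2.17 ± 0.45). The exporter SWEET1 read 311, 384 and 294 against 149, 184 and 178 (-0.89 ± 0.20). These 3 of 11 tested were higher in potassium-starved shoots and 0 in caesium-treated shoots, but the list median was only -0.09, and 6 further SWEET genes tested did not pass. With the replicate block DPE1 (0.64, adjusted p = 0.0251) and PWD (0.52, adjusted p = 0.017), both of starch breakdown, were higher in caesium-treated shoots. Of 5 senescence genes tested SAG29 alone passed; WRKY53 (-0.36), WRKY22 (-0.42), SAG101 (-0.27) and WRKY6 (-0.09) did not. WRKY6 read 136, 85.6 and 89.3 in potassium-starved, 107, 86.9 and 90.4 in caesium-treated and 36.6, 22.1 and 10.4 in control shoots, so both treatments lay above its control level.

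Redox and phosphonucleotide enzymes were further members of the steep group. SAL2, a phosphatase related to the enzyme that degrades the signal phosphoadenosine phosphate, read 618, 325 and 392 in potassium-starved and 22.7, 38.3 and 22.9 in caesium-treated shoots (-3.36 ± 0.37, adjusted p = 0.000533), with controls at 19.2, 51.6 and 5.6. MSRB9, a methionine sulfoxide reductase that repairs oxidised proteins, read 991, 1256 and 498 against 91.6, 157 and 119 (-2.68 ± 0.36). NDB2, an alternative NADH dehydrogenase of the mitochondrial inner membrane, read 596, 389 and 385 against 157, 162 and 237, with controls lower than both at 87.4, 76.6 and 68.5 (-1.23 ± 0.21). The oxidative stress list was mixed otherwise: of 6 tested, NDB2 was higher in potassium-starved shoots and AT2G21640 in caesium-treated shoots (42.8, 17.4 and 40.9 against 55.8, 69.3 and 71.5, adjusted p = 0.0456). MSRB6 read 50.3, 86.5 and 25.9 in potassium-starved, 38.3, 64.7 and 51.3 in caesium-treated and 209, 238 and 169 in control shoots, so the treated groups overlapped each other well below their controls. MSRB9, RING1, TET9, SRC2, CHI, EXO and FIS1B were picked for their size after values were seen, as the largest differences among genes with a name other than a locus code.

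Several genes of defence and the cell surface were in that set. RING1, a membrane-bound ubiquitin ligase linked to cell death, read 2586, 1706 and 1972 in potassium-starved and 374, 473 and 481 in caesium-treated shoots (-2.18 ± 0.33). CHI read 2761, 2028 and 1631 against 475, 554 and 745 (-1.82 ± 0.44). SRC2, a protein of the endomembranes that responds to cold, read 2359, 2193 and 1801 against 485, 709.9 and 451 (-1.94 ± 0.21). All 3 stood above their control range in the potassium-starved group, and CHI also lay above its controls of 279.8, 322 and 70.3 in the caesium-treated group on 3 of 3 arrays. The tetraspanin TET9 read 135, 146 and 68.8 against 20, 11.3 and 16.1 (-2.01 ± 0.23), with controls at 21, 18.9 and 19.8, so that only its potassium-starved signals were above the floor. GRX480, a glutaredoxin of salicylic acid signalling, was 1 of 3 tested defence genes and read 389, 314 and 254 against 151, 147 and 193, above controls at 94.4, 45.2 and 46.3 in either treatment (-0.88 ± 0.25, adjusted p = 0.0229). Jasmonate genes gave 0 calls among 5 tested without a block, and here the spread was wide: PDF1.2, a plant defensin, read 51.5, 1692 and 41.4 in potassium-starved, 425, 2462 and 208 in caesium-treated and 247, 2008 and 33.2 in control shoots. Replicate 2 was by far the highest of its group in all 3 groups, so the groups overlapped, while within each replicate number the caesium-treated array was the higher one. With the replicate number as a block PDF1.2 passed (1.74, adjusted p = 0.0072), and THI2.1 (-1.37, adjusted p = 0.0175) and PDF1.4 (-1.09, adjusted p = 0.0279) were higher in potassium-starved shoots, so the list had 1 call higher and 2 lower.

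Among cell wall genes, those that loosen walls gave calls on the potassium-starved side and those that build wall polymers gave calls mostly on the caesium side. Among 12 tested expansins and xyloglucan endotransglucosylases, which loosen walls during growth, 3 were higher in potassium-starved shoots and 0 in caesium-treated shoots. EXLA1, an expansin-like protein, read 356, 388 and 139 against 54.1, 40.2 and 30.2, with controls at 70, 75.7 and 58.1 (-2.33 ± 0.32). XTH19 read 118, 149.5 and 226 against 48.9, 22.1 and 33.4, with controls at 25.5, 29.6 and 41.9 (-1.82 ± 0.25). EXPA9 read 126, 67.5 and 93.9 against 62.2, 42.1 and 53.8 (-0.68 ± 0.20). The potassium-starved arrays were the highest 3 of the 9 in EXLA1, XTH19 and EXPA9. The list median was -0.01, and its 12 members ranged from -2.33 to 0.49, 6 of them positive. EXO, an extracellular protein of brassinosteroid-driven growth, read 425, 455 and 161 against 130.2, 109 and 54.1 (-1.62 ± 0.39). Among 25 tested genes of wall polysaccharide synthesis, acetylation and related surface proteins, 10 were higher in caesium-treated shoots and 1, the pectin methylesterase ATPMEPCRB (-1.06 ± 0.33), in potassium-starved shoots, with a median of 0.50. Median gene length was 1894.5 bases in the list of 12 and 3187 bases in the list of 25. The part of length in the 2 counts was not tested.

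SKU5, a membrane-anchored copper-oxidase-like protein that guides cell expansion, read 145, 158 and 157 in potassium-starved and 437, 401 and 418 in caesium-treated shoots (1.36 ± 0.19), while controls at 744, 659 and 1108 were higher than either. TBL25, of the family that acetylates wall polymers, read 114, 99.4 and 161 against 229, 306 and 285 (1.05 ± 0.19). Cellulose synthase-like genes, which make the backbones of xyloglucan and mannan, were looked at as a family after values were seen: CSLC5 (0.82), CSLC04 (0.76), CSLC6 (0.71), ATCSLC08 (0.69) and CSLA03 (0.96) made 5 of 7 tested, and all 5 are among the 10 above. CSLC04 read 161, 171 and 189 in potassium-starved, 311, 278 and 324 in caesium-treated and 361, 428 and 429 in control shoots. Thus the caesium-treated level of this gene lay between the other groups, which did not overlap it. Without caesium-treated replicate 1, without caesium-treated replicate 3 and without potassium-starved replicate 2, 6 of the 25 wall genes were higher in caesium-treated shoots, and 6 also with arrays centred on their medians.

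Some genes of autophagy and of ubiquitin conjugation were higher in potassium-starved shoots. Autophagy wraps cell contents for breakdown in the vacuole, and its ATG8 proteins coat the forming membrane. Of 11 tested autophagy genes 5 were higher in potassium-starved shoots and 0 in caesium-treated shoots, with a median of -0.60, and all 5 encode ATG8 forms. The list's median gene length was 1798 bases. Of all nuclear genes of 1500 to 2000 bases, 14.8% were higher in potassium-starved shoots. ATG8D read 428, 586 and 367 against 191, 167 and 207, with controls at 158, 168 and 169 (-1.20 ± 0.18). APG8A (-0.84 ± 0.27) and ATG8B (-0.76 ± 0.26) followed. APG8H (-0.62) and ATG8G (-0.49) made up the 5. ATG8C, with -0.87, missed the threshold (adjusted p = 0.0546, and 0.00674 with the replicate block). ATG3, the enzyme that attaches ATG8 to lipid, read 147, 140.3 and 142 against 154, 146 and 151. The count rested on few arrays, since 1 passed without each caesium-treated replicate in turn, 2 without potassium-starved replicate 2 and 3 without control replicate 3.

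Of 11 ubiquitin-conjugating enzymes tested, 5 were higher in potassium-starved shoots and 0 in caesium-treated shoots (median -0.56). PEX4, the peroxisomal member, read 421, 775 and 446 against 273, 255 and 275 (-0.93 ± 0.21). UBC29 read 234, 186 and 184 against 116, 107 and 125 (-0.71 ± 0.16), and UBC18 read 138, 235 and 208 against 101, 135 and 102 (-0.69 ± 0.21). UBC30 (-0.63) and UBC27 (-0.58) were the other two. Between 2 and 3 of them passed without each caesium-treated replicate in turn or without potassium-starved replicate 2. Ubiquitin-specific proteases, which remove ubiquitin and were added as a family after values were seen, had 5 of 12 members higher in caesium-treated shoots and 0 in potassium-starved shoots, with a median of 0.55. UBP23 read 65.1, 25.5 and 57.6 in potassium-starved and 188, 157 and 154 in caesium-treated shoots (1.53 ± 0.24), and UBP15 (0.80), UBP24 (0.76), UBP26 (0.74) and UBP25 (0.62) were smaller. The conjugating enzymes had a median gene length of 1853 bases and the proteases one of 3950.5 bases, a property taken up below.

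Families of membrane traffic, also added after values were seen, were called in different directions. Their median gene lengths differed, at 6063 bases for exocyst, 2009 for ESCRT, 1147.5 for prenylated RAB acceptor and 913 for RALF-like genes. Of all nuclear genes of 5000 to 7500 bases, 53.8% were higher in caesium-treated shoots. The share higher in potassium-starved shoots was 10.1% at 2000 to 2500, 23.2% at 1000 to 1500 and 29.5% up to 1000 bases. The part of length in these counts was not tested. Exocyst subunits tether secretory vesicles to the plasma membrane, and 4 of 5 tested were higher in caesium-treated shoots. SEC6 read 88.6, 53.6 and 65.3 in potassium-starved and 229, 165 and 161 in caesium-treated shoots (1.24 ± 0.23), and SEC15B (1.13 ± 0.18), SEC5A (0.93 ± 0.19) and SEC10 (0.78 ± 0.22) passed as well. In each of these 4 the potassium-starved arrays were the lowest 3 of the 9. ESCRT proteins sort membrane cargo for breakdown, and 4 of 11 tested were higher in potassium-starved shoots: VPS2.1 (-0.73), VPS46.2 (-0.72), VPS22 (-0.64) and VPS60.1 (-0.47). Without caesium-treated replicate 1 that number was 0, without replicates 2 and 3 of the same group it was 2 each, and without potassium-starved replicate 2 it was 1. Prenylated RAB acceptors, small membrane proteins of the secretory path, had 4 of 10 higher in potassium-starved shoots, led by PRA8 at 584, 1143 and 619 against 304, 318 and 347 (-1.17 ± 0.23), and 2 without caesium-treated replicate 1. RALF-like peptides, secreted signals that act on receptor kinases, had 3 of 6 higher in potassium-starved shoots: RALFL22 (-1.19 ± 0.21), RALFL33 (-0.99 ± 0.24) and RALFL31 (-0.68 ± 0.20).

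On the caesium side, 6 of the 12 largest differences among named probe sets were those of genes of the plastid genome, which encodes part of the photosynthetic complexes and of the plastid's own ribosomes and RNA polymerase. Of 69 plastid-encoded genes with a probe set, 67 passed the filter, ndhF and rpoB being below it. Among the 67, 23 were higher in caesium-treated shoots and 1, petN (-0.62 ± 0.18), in potassium-starved shoots, with a median of 0.44. With arrays centred on their medians the counts were 18 and 3. The number higher in caesium-treated shoots was 12 without caesium-treated replicate 1 and 11 without potassium-starved replicate 2. Plastid genes are transcribed in shared units, so neighbours are not independent, and the labelling primer was an oligo-dT while most plastid transcripts carry no long poly(A) tail. In such pooled shoots, fewer cells of a type and less RNA per cell cannot be told apart.

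The genes for ribosomal proteins rpl22, rpl14, rpl16, rps3 and rps19, whose locus tags follow each other on the plastid genome, were all higher in caesium-treated shoots. For rpl22 the signals were 103, 80.3 and 116 in potassium-starved, 1141, 459 and 489 in caesium-treated and 642, 125 and 470.3 in control shoots (2.51 ± 0.50, adjusted p = 0.00637). For rpl16 they were 174, 140.4 and 195 against 1257, 625 and 641 (2.14 ± 0.41). For rpl14 they were 59.2, 26.2 and 89.4 against 588, 264 and 225 (2.31 ± 0.52). In all 5 caesium-treated replicate 1 was the highest caesium-treated array and control replicate 2 the lowest control array. Of 15 ribosomal protein genes tested, 7 were higher in caesium-treated shoots (median 0.86). Of the plastid RNA polymerase, rpoC1 (1.74 ± 0.46) and rpoA (1.32 ± 0.39) passed and rpoC2 did not (1.84 ± 0.67, adjusted p = 0.0612, and 0.00153 with the replicate block).

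Photosynthetic complexes were not uniform. The photosystem I core gene psaA read 275, 134 and 582 in potassium-starved, 1873, 1529 and 1369 in caesium-treated and 1801, 1155 and 1188 in control shoots (2.43 ± 0.40), whereas its partner psaB did not pass (0.26 ± 0.22). Of the ATP synthase, atpA (1.44 ± 0.28), atpF (1.77 ± 0.26) and atpH (0.92 ± 0.26) were higher in caesium-treated shoots, while atpB (-0.12) and atpE (-0.07), which form a separate transcription unit, did not pass. The NDH complex, which carries electrons around photosystem I, had 5 of 9 higher, with ndhH at 10.6, 4.1 and 4.1 against 181, 91.1 and 36 (2.22 ± 0.45); its potassium-starved arrays were below the floor. Photosystem II had 2 of 15 higher, psbD (0.95) and psbH (1.07), a median of 0.03, and psbA, the gene of the D1 protein, at -0.27 without a call. Cytochrome b6f had 0 of 6 higher. The large subunit of Rubisco, rbcL, missed the threshold (0.99 ± 0.36, adjusted p = 0.0631, and 0.0114 with the replicate block).

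**Figure D3:**
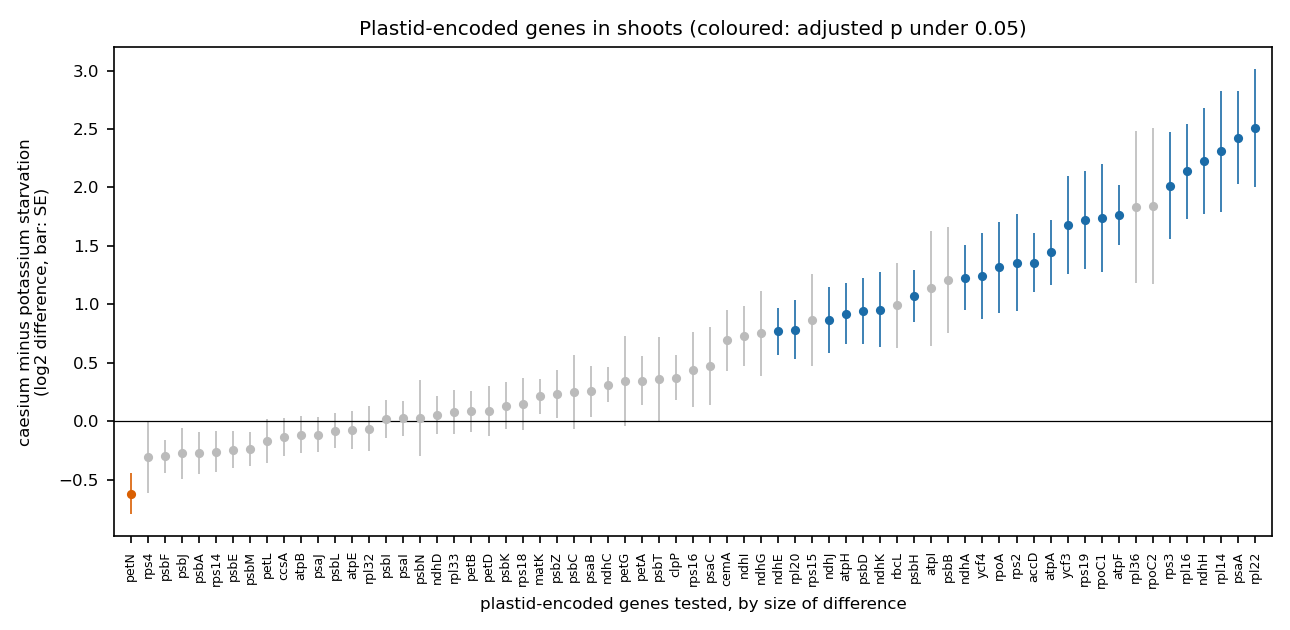
Difference between caesium-treated and potassium-starved shoots (log2 scale, bars: standard error) for the 67 plastid-encoded genes tested, sorted by size. The 23 blue genes were higher in caesium-treated shoots and the 1 orange gene, petN, in potassium-starved shoots. Photosystem II genes had a median of 0.03 and ranged from -0.30 to 1.21. Ribosomal protein genes had a median of 0.86 and an overlapping range of -0.31 to 2.51.

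Some nuclear genes of the chloroplast also showed differences. The plastid chaperonin, which folds Rubisco among other proteins, had Cpn60beta2 at 101, 73.1 and 103 in potassium-starved, 724, 354 and 428 in caesium-treated and 302, 220.2 and 306 in control shoots (2.20 ± 0.25, adjusted p = 0.000675), so caesium-treated arrays lay above all controls. Cpn60beta3 read 5.8, 22.4 and 25 against 70.3, 71.9 and 73.3 (1.43 ± 0.29), and Cpn60beta4, the remaining 1 of 3 in this family added after values were seen, did not pass (0.60) except with the replicate block (adjusted p = 0.0212). The family's median gene length was 3742 bases. Of all nuclear genes of 3000 to 4000 bases, 26.0% were higher in caesium-treated shoots. CHL, the chloroplast lipocalin that protects membranes from oxidation, read 79.3, 68.8 and 97.2 against 265, 319 and 282 (1.65 ± 0.16), and FUG1, the translation initiation factor of chloroplasts, read 207, 144 and 249 against 766, 541 and 597 (1.61 ± 0.27). Of 10 nuclear photosynthesis genes tested, 2 were higher in caesium-treated shoots and 0 in potassium-starved shoots, with a median of 0.25. That 20.0% is close to the 18.7% of all probe sets tested. LHCB4.3, a minor antenna protein, read 135, 76.2 and 169.9 against 317, 206 and 300.1 (1.06 ± 0.26). SBPASE, an enzyme of the Calvin cycle, read 1109, 562 and 1025 against 1541, 1262 and 1461 (0.71 ± 0.23). With arrays centred on their medians 1 was higher and 1 lower, with quantile normalization 4 were higher, and between 0 and 1 passed without each caesium-treated or control replicate or without potassium-starved replicate 2. PRK, the phosphoribulokinase of the same cycle, read 1642, 641 and 1370.1 against 1762, 1694 and 1676 and did not pass (adjusted p = 0.144). Potassium-starved replicate 2 was the lowest of the 9 arrays for PRK, SBPASE and LHCB4.3.

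Among mitochondrion-encoded transcripts 2 of 15 probe sets were higher in caesium-treated shoots, nad5 and nad9, and 3 in potassium-starved shoots, 2 of them for nad1 and the third for ccb206. Without caesium-treated replicate 2, caesium-treated replicate 3 or potassium-starved replicate 2 the counts were 0 and 0. They were 0 and 3 without caesium-treated replicate 1, and 0 and 1 without control replicate 3 or potassium-starved replicate 1. Control replicates 1 and 2 and potassium-starved replicate 3, left out in turn, gave 1 and 3. With the replicate block the counts were 2 and 5, after centring 0 and 5, and the 4 probe sets of nad1 ranged from -0.11 to -0.76.

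The other 6 of the 12 largest on the caesium side were Cpn60beta2 and the locus codes AT2G16660 (2.21), AT5G59670 (2.12), AT1G13730 (2.01), AT5G40450 (1.94) and AT1G15290 (1.91). Genes with a name other than a locus code, picked for their size after values were seen, follow. SWEETIE, a very large protein tied to sugar and trehalose balance, read 3.5, 3 and 16.5 in potassium-starved, 64.2, 57.9 and 41.8 in caesium-treated and 64.3, 41.1 and 61.7 in control shoots (1.61 ± 0.24); its potassium-starved signals were below the floor. The sucrose phosphate synthase ATSPS4F, which makes the precursor of sucrose, read 32.6, 24 and 43 against 241, 100.2 and 108 (1.67 ± 0.37). TPP2, a giant peptidase, read 129.6, 122 and 157 against 381, 437 and 359 (1.42 ± 0.18), and XPO1B, a nuclear export receptor, read 7.2, 16.5 and 13.9 against 60.5, 64.1 and 52.3 (1.40 ± 0.17), again with potassium-starved signals below the floor. Subunits of the nuclear RNA polymerases, a family added at the same stage, were called in both directions. The large subunit NRPA1 read 29.6, 21.2 and 24.2 against 88.7, 77.8 and 56 (1.12 ± 0.17), and the large subunits NRPA2 (0.92 ± 0.17) and NRPC2 (0.76 ± 0.14) were higher in caesium-treated shoots too. The small subunits NRPB12 (-0.75 ± 0.23) and NRPB9B (-0.51 ± 0.15) were higher in potassium-starved shoots, though in 5 and 4 of the 9 fits without 1 array, and 4 more small subunits tested did not pass. In NRPA1, NRPA2 and NRPC2 every control array lay below every caesium-treated array.

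Scaffold proteins on microtubules and membranes followed. IQ-domain proteins, which bind calmodulin and microtubules, had 6 of 8 tested members higher in caesium-treated shoots (median 0.82), led by IQD28 at 16.8, 19.1 and 30.1 against 60.5, 42.3 and 88.3 (1.04 ± 0.22). This number was 2 without caesium-treated replicate 1, 3 without caesium-treated replicate 3 or potassium-starved replicate 2, and 2 after centring, and with the replicate block IQD23 (-0.62, adjusted p = 0.0229) was higher in potassium-starved shoots. TON1 recruiting motif proteins, which place microtubules, had 4 of 7 (median 0.55), led by TRM20 (0.95 ± 0.23), and 2 after centring, without caesium-treated replicate 2 or without caesium-treated replicate 3. Both families were added after values were seen, and their median gene lengths were 3643 and 4207 bases. Of all nuclear genes, 26.0% of those of 3000 to 4000 bases were higher in caesium-treated shoots. At 4000 to 5000 bases that share was 38.0%.

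Hormone, transport and metabolic lists held single calls. EIN3, the master transcription factor of ethylene responses, read 237, 181 and 244 in potassium-starved and 409, 444 and 375 in caesium-treated shoots, with controls at 342, 361 and 355 (0.85 ± 0.16, adjusted p = 0.00432). The auxin response repressors IAA29 (0.67 ± 0.21) and IAA18 (-0.67 ± 0.18) went opposite ways, and IAA29 was far below its controls of 209.7, 126 and 140.4 in both treatments. IAA29 did not pass after centring (adjusted p = 0.0856) or quantile normalization (adjusted p = 0.0766), whereas IAA18 passed in both. Of the 9 fits without 1 array, IAA29 passed in 5 and IAA18 in 7. With the replicate block WES1 (0.46, adjusted p = 0.0251) was a further call of that list. Of 11 genes of nitrate, ammonium and amino acid handling, the glucosinolate transporter GTR1 (0.98 ± 0.29) and AT2G26690, also listed as NPF6.2 (0.73 ± 0.19), were higher in caesium-treated shoots. AT1G68570, also listed as NPF3.1, read 1251, 622 and 1181 in potassium-starved, 379.8, 179 and 477 in caesium-treated and 133, 126 and 269 in control shoots (-1.56 ± 0.39). The list's shares were 18.2% higher and 9.09% lower, close to the 18.7% and 9.72% of all probe sets tested. Its median was -0.03. Without caesium-treated replicate 3 or potassium-starved replicate 2 neither GTR1 nor AT2G26690 passed, and 1 of them did without caesium-treated replicate 1.

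UDP-glycosyltransferases, which attach sugars to hormones and defence compounds, had 4 of 26 members higher in caesium-treated shoots and 0 in potassium-starved shoots (median 0.40), and 11 with the replicate number as a block. The 4 are 15.4% of the family, no more than the 18.7% of all probe sets tested. With the block the share of all probe sets also rose, to 25.9%. GT72B1, which acts on lignin precursors, read 275, 189 and 227 against 364, 339.7 and 629, with controls of 231, 217 and 272 at the potassium-starved level (0.86 ± 0.23). UGT85A4 (1.10 ± 0.28) and UGT74D1 (0.98 ± 0.23) were close in size. The family's count was 2 without caesium-treated replicate 1 or 2. Cytochromes P450, oxygenases of many pathways, had 2 of 10, CYP71B34 (1.11 ± 0.23) and CYP71B5 (0.98 ± 0.23), and 4 with the block. That 20.0% is close to the 18.7% of all probe sets tested. AT3G13610, also listed as F6'H1, an enzyme of the coumarins that plants secrete to take up iron, read 324, 330.2 and 221 in potassium-starved, 82.4, 140.0 and 204 in caesium-treated and 17.4, 20 and 1.4 in control shoots (-1.01 ± 0.33, adjusted p = 0.0419). Both treated groups thus stood far above controls, and the potassium-starved arrays above the caesium-treated ones. The difference between the treatments did not pass after quantile normalization. Nor did it pass without caesium-treated replicate 1 or 2 or without potassium-starved replicate 1 or 2.

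Transcription factor families were split. Of 6 WRKY genes tested, WRKY47 (-0.88 ± 0.18) was higher in potassium-starved shoots and ZAP1 (1.18 ± 0.26) and WRKY20 (0.60 ± 0.18) in caesium-treated shoots. Of the latter pair 1 passed after centring or quantile normalization and without each caesium-treated replicate or potassium-starved replicate 2. Of 12 bZIP genes, bZIP44 (-1.32 ± 0.32), BZIP60, the regulator of the unfolded protein response (666, 903 and 497 against 329.5, 411 and 369.9, -0.83 ± 0.25), and BZIP53 (-0.70) were higher in potassium-starved shoots. BZIP61 was higher in caesium-treated shoots, at 3.6, 4.5 and 17 against 44.4, 31.5 and 17.5, far below its controls of 123, 113 and 126 (0.95 ± 0.25). The 3 became 1 without each caesium-treated replicate in turn and 0 without potassium-starved replicate 2. The iron regulators bHLH121 (0.72 ± 0.18) and ILR3 (-0.46 ± 0.13) differed in sign.

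Other lists gave few calls or 0. Glutathione S-transferases, which detoxify reactive compounds, had 0 of 7 tested members called, with differences between -0.37 for GSTU25 and -0.01 for GSTU15. After centring, and likewise after quantile normalization, 1 of the 7 was higher in potassium-starved shoots. BCAT4, an enzyme of methionine-derived glucosinolates, read 1266, 1057 and 1711 in potassium-starved and 445, 705 and 1038 in caesium-treated shoots (-0.92 ± 0.30, adjusted p = 0.0434), the 1 call among 3. BCAT4 did not pass after quantile normalization, without caesium-treated replicate 1 or 2, or without any 1 of the potassium-starved replicates. With the replicate block UGT74B1 (0.46, adjusted p = 0.035) passed too. GI, a clock gene, read 87.3, 40.2 and 86.2 against 135, 114 and 113 and missed the threshold (adjusted p = 0.051, and 0.0145 with the replicate block). The 2 heat shock genes tested, Hsp70-2 (0.15) and ATHSP22.0 (0.24), did not pass, nor did the polyamine genes AT5G15950 (0.04) and SAMDC (-0.34), the cytokinin response regulators ARR15 (-0.24) and RR16 (0.42) or NAC014 (0.34). Low-potassium signalling, calcium-dependent kinases, trehalose phosphate synthases, MYB factors, aquaporins, cytosolic ribosomal proteins and reference genes had no named probe set and were not analysed here.

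Of the list of potassium transporters and channels a single member was tested. AT1G60160, entered there by its locus code, read 72.2, 60.2 and 84.2 in potassium-starved, 135, 71.2 and 95 in caesium-treated and 165, 77.3 and 94.9 in control shoots; the groups overlapped and the difference of 0.37 ± 0.27 did not pass (adjusted p = 0.315). CHX20, a cation exchanger, was below the filter on low signals, and the other transporters, channels and low-potassium signalling genes listed, HAK5 and AKT1 among them, matched no named probe set and were not analysed here. Of 4 genes tested in the list of calcium and proton pumps, VHA-A3, a subunit of the pump that energises storage in the vacuole, was higher in caesium-treated shoots, at 448, 304 and 366 against 545, 724 and 559 (0.69 ± 0.18). It did not pass without caesium-treated replicate 2 or without potassium-starved replicate 2, and with the replicate block 2 of the 4 were higher and 1 lower.

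Gene length moved with the contrast across the whole nuclear set. The lengths, measured from start to end of the gene with introns in the RefSeq annotation of TAIR10.1, were available for 7323 of 7355 named probe sets tested, of which 7256 were nuclear. Among these, genes over 5000 bases were higher in caesium-treated shoots in 265 of 467 cases (56.7%) and in potassium-starved shoots in 3, with a median difference of 0.62. Genes under 1500 bases were higher in caesium-treated shoots in 22 of 1372 cases (1.60%) and in potassium-starved shoots in 347 (25.3%), with a median of -0.26. Over all 13647 probe sets tested, named or not, the shares were 18.7% and 9.72%. Among the 7355 named ones, 1182 were higher in caesium-treated shoots and 794 in potassium-starved shoots. Between these ends the median climbed in each of 9 length classes, from -0.33 up to 1000 bases, through 0.03 at 2000 to 2500 bases, to 0.72 over 7500 bases. Across the 7256 genes, which are not independent replicates and share the same 9 arrays, Spearman's correlation of length with difference was 0.54. This split by length was made after values were seen.

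The trend was present on single arrays. The median deviation from the 9-array mean of genes over 5000 bases, less that of genes under 1500 bases, was 0.47, 0.40 and 0.37 on the caesium-treated arrays and -0.29, -0.87 and -0.39 on the potassium-starved arrays, with controls at 0.31, -0.07 and 0.14. Caesium-treated and potassium-starved arrays did not overlap (two-sided exact permutation p = 0.1, the smallest that 3 against 3 arrays allow), and potassium-starved replicate 2 stood farthest out. Its removal left a gap between long and short genes of 0.71 against 0.88 in all arrays. The gap was 0.70, 0.93 and 1.11 among the genes of low, middle and high mean signal, and 0.10 in the same contrast in roots. After centring 38.1% of genes over 5000 bases were higher in caesium-treated shoots and 35.7% of those under 1500 bases in potassium-starved shoots.

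**Figure D4:**
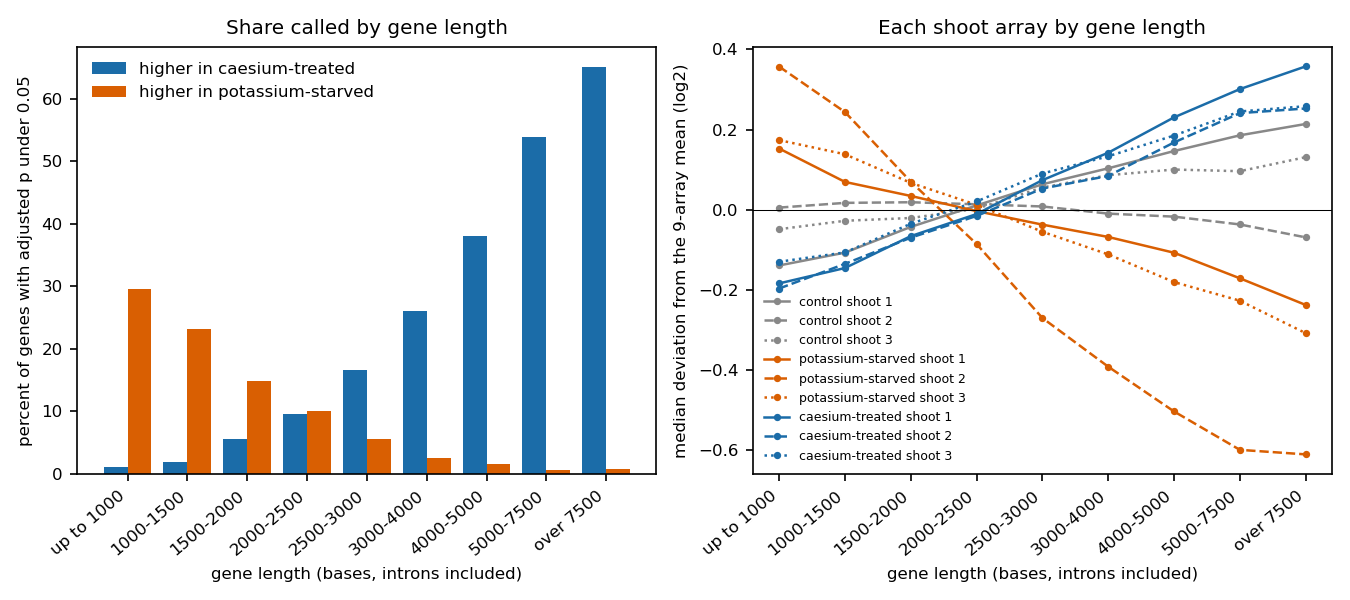
Left, percent of nuclear genes in each length class (bases, introns included) that passed the test in either direction. Right, for each of the 9 shoot arrays, the median deviation of the genes of a class from their 9-array mean (log2 scale); caesium-treated lines rise with length, potassium-starved lines fall and control lines lie mostly between, control replicate 1 close to the caesium-treated lines; potassium-starved replicate 2 is the steepest.

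Several genes described above sit at the ends of this range. SWEETIE spans 16684 bases, NRPC2 11049, NRPA1 9705, TPP2 9351 and SEC6 7561, and all were higher in caesium-treated shoots. CML41 spans 926 bases, LTI30 969, RALFL31 752 and AT4G18280 972, and all were higher in potassium-starved shoots. Their differences of -3.68, -2.69, -0.68 and -4.45 stand beside a median of -0.33 for genes up to 1000 bases. Plastid genes, with a median length of 531 bases, had a median difference of 0.44. NDB2, at 4173 bases, and WRKY47, at 3751, were longer than the median gene, 2302 bases, and higher in potassium-starved shoots. The part of length in the list counts was not tested.

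Ratios of 3' to 5' control probe sets, a measure that RNA integrity and labelling affect, are given beside the length trend. The ubiquitin ratio was 2.06, 2.47 and 2.88 on the caesium-treated arrays, and 1.87, 1.68 and 2.07 on the potassium-starved arrays, below the controls at 2.41, 3.36 and 3.19. The GAPDH ratio was 1.01, 1.05 and 1.17 against 1.37, 1.24 and 1.03, and the actin ratio 6.02, 4.83 and 6.02 against 6.05, 5.52 and 6.11. So the ubiquitin ratio was higher in the caesium-treated group on average and the GAPDH and actin ratios were lower, all 3 with overlapping groups (exact permutation p = 0.2, 0.3 and 0.5). A second pair of ubiquitin probe sets read 1.52, 1.78 and 1.55 on the caesium-treated arrays and 1.31, 1.23 and 1.44 on the potassium-starved arrays, and these did not overlap (exact permutation p = 0.1, the smallest possible). Its controls, at 1.51, 1.94 and 1.79, overlapped the caesium-treated arrays. The part of these ratios in the length trend was not tested. The probe set for 25S ribosomal RNA read 1170, 78.0 and 622 on the potassium-starved arrays against 161, 254 and 330. Scanner background averaged 72.8 ± 6.41 and 71.4 ± 4.91 (SD, n = 3 each). With 3 arrays a group the exact permutation test cannot go below p = 0.1, and adjusted over 17 measures the lowest p was 0.283, so it could not have passed the threshold. Median signal, the percent of signals above 100, the highest signal, the second ubiquitin pair, the summed leaf markers and the median plastid level reached that lowest value, their groups not overlapping.

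Leaf markers were high in the shoots and low in the roots of the series. The leaf genes PRK, RCA, SBPASE, LHCB4.1, LHCB4.2 and LHCB4.3 stood between 76.2 and 3719 on shoot arrays and between 1.5 and 185.5 on root arrays. Their summed signal was 9789, 12231 and 10541 in caesium-treated, 9580, 6558 and 8875 in potassium-starved and 12418 to 13461 in control shoots (exact permutation p = 0.1 between the treatments). Caesium-treated sums thus lay above all potassium-starved sums, the nearest being 9789 and 9580. The treatments overlapped in RCA, LHCB4.1 and LHCB4.2 and did not overlap in PRK, SBPASE and LHCB4.3. SBPASE and LHCB4.3 are themselves calls of this contrast. The sums stand beside the higher plastid transcripts of the caesium-treated group, and the part of leaf content in those results was not tested. Of 7 root markers, EXPA7, EXPA18, XTH26, AT3G49960 and AT1G14960 read between 0.4 and 30.1 on every shoot array. PYK10, an abundant glucosidase of roots, read 46.9, 903 and 521 in potassium-starved, 129, 949 and 420.0 in caesium-treated and 173, 1199.7 and 279 in control shoots against 1915 to 3501 in roots, with replicate 2 the highest of each group, and BGLU25 read 100 to 272 in shoots. The summed root markers were 376, 1114 and 729 in potassium-starved and 312, 1171 and 633 in caesium-treated shoots, so the treatments overlapped. The epidermis gene FDH (0.75 ± 0.36) and the guard cell gene FMA (-0.02 ± 0.21) did not pass, though FDH did with the replicate block (adjusted p = 0.0132), and markers of flowers, pollen and seeds had no named probe set.

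The control level lay mostly on the caesium side of the contrast. Its place was taken as the share of the way from the potassium-starved mean to the caesium-treated mean, on the log2 scale. Of the 3885 probe sets, 3301 (85.0%) had their control mean nearer to the caesium-treated mean or beyond it, and 584 (15.0%) nearer to the potassium-starved mean or beyond that. In 1369 the control lay beyond the caesium-treated mean and in 54 beyond the potassium-starved mean. The median place was 0.79 for probe sets higher in caesium-treated shoots and 1.00 for those higher in potassium-starved shoots. These shares describe the called probe sets and carry no test.

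**Figure D5:**
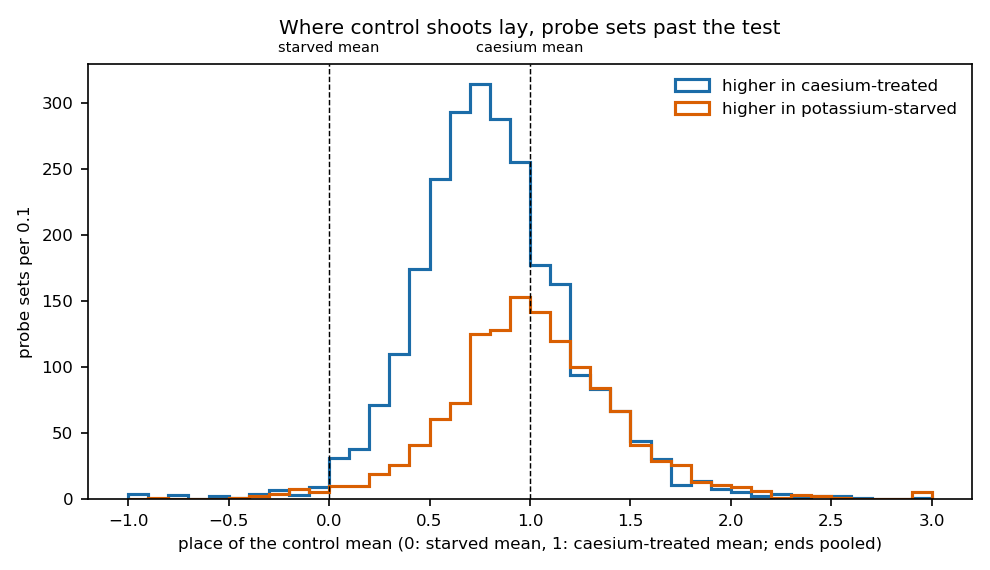
Number of called probe sets by the place of the control mean between the potassium-starved mean (0) and the caesium-treated mean (1), in steps of 0.1. Both directions peak near the caesium-treated mean, with medians of 0.79 and 1.00, and few lie near 0.

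The few genes where caesium-treated shoots stood apart, and controls sat with the potassium-starved arrays, included AT1G51890 at 31.8, 32.3 and 27 in potassium-starved, 28.1, 29.9 and 17.6 in control and 63.5, 85.4 and 74.3 in caesium-treated shoots (0.96 ± 0.17). Fes1A, a partner of the heat shock protein HSP70, read 85.4, 99.9 and 68.5 in potassium-starved, 53.5, 68.5 and 63 in control and 112, 168 and 175 in caesium-treated shoots (0.73 ± 0.19). GAMMA-VPE, a vacuolar protease of cell death, read 549.9, 492 and 1062, then 576, 718 and 692 in controls, and 1069, 1122 and 1161 under caesium (0.74 ± 0.25, adjusted p = 0.0462). In AT1G51890, Fes1A and, by a small margin, GAMMA-VPE the caesium-treated arrays were the highest 3. GAMMA-VPE passed in 1 of 9 fits without 1 array, and Fes1A and GAMMA-VPE did not pass after centring. Lower in caesium-treated shoots than in either other group were AT5G40500 (-0.69 ± 0.18), AT1G66890 (-0.67 ± 0.18) and AT4G32340. The last read 792, 653 and 705 in potassium-starved, 872, 757 and 669 in control and 318, 485 and 383 in caesium-treated shoots (-0.85 ± 0.18). Controls nearer the potassium-starved mean, though not beyond it, were seen in AT1G22930, at 147, 74 and 85.6, 182, 78.8 and 108 and 281, 281 and 254 in the same order (1.33 ± 0.28), the tRNA-processing enzyme TRZ3 (1.27 ± 0.19) and AT3G57630 (1.26 ± 0.18). AT3G52740 (-1.39 ± 0.22) joined COR47 and RALFL22 among those lower under caesium.

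Roots of the same treatments gave a narrower contrast, and the difference between organs was tested as an interaction. In roots 690 of 13647 probe sets (5.06%) passed, 2.50% higher in caesium-treated and 2.56% in potassium-starved roots. The interaction passed in 1660 of 11867 probe sets measured in both organs (14.0%), with the shoot difference above the root difference in 927 (7.81%) and below it in 733 (6.18%). With the replicate number as a block there were 2775. The number was 980 and 1028 without caesium-treated root replicates 1 and 3, 1028 without caesium-treated shoot replicate 1, 841 and 916 without potassium-starved root replicates 1 and 3, 916 without potassium-starved shoot replicate 2 and 756 when both root arrays that their titles call repeats were left out. XTH19 had opposite signs, with -1.82 ± 0.25 in shoots and 1.42 in roots, where potassium-starved and caesium-treated means were 56.6 ± 20.3 and 175 ± 22.7 (SD, n = 3). AT2G16660, the fifth largest gene on the caesium side of shoots at 123, 122 and 127 against 535, 870.3 and 542, was lower under caesium in roots, at 99.8 ± 15.6 against 209.9 ± 25 (SD, n = 3). In roots the difference of CML41 was -0.04 and that of AT2G23120 0.07, beside -3.68 and -3.09 in shoots. For COR47 the interaction missed the threshold (adjusted p = 0.054).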

How the data were processed

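The deposited values are intensities, 1 linear signal per probe set and array of Affymetrix ATH1; judged from the values, the authors scaled each array to a mean of 100 after trimming 2% at either end, and no software was named in the sources used. Total RNA was labelled from an oligo-dT primer, per the labels' protocols. AFFX control probe sets were removed, 16 was added and log2 taken. The 9 shoot arrays were fitted with limma 3.58.1 in R 4.3.3 (moderated test, two-sided, Benjamini-Hochberg over 13647 probe sets, threshold 0.05), and all 18 for the interaction with organ over 11867. Array signals carry no read depth, so the number of arrays limits precision. On simulated data 64 of 100 changes of 1 and 93 of 100 changes of 2 on the log2 scale were recovered, with 7 false calls. Noise was drawn separately for each probe set, without deviations shared across an array. Far fewer probe sets were changed than were called in the real data. These figures therefore do not measure the false calls of the real contrast.

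Same-numbered caesium-treated and potassium-starved shoot samples deviated together (correlations of 0.207, 0.362 and 0.251, other pairings -0.284 to 0.0902), so the number was also fitted as a block. Alternatives varied the added constant, filter, scaling, weights, covariate and arrays. Named genes had 1 gene name, passed, and had groups that did not overlap: the 12 largest each way, the 3 largest each way in each class of control level, and up to 3 of each list with at least 2 calls. Others, among them lone calls of a list, the named-gene leaders and 10 families, were chosen after values were seen. The members and lists were chosen with earlier results of these data known. Names come from the platform annotation and RefSeq; no sequences were used.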

Additional observations from a re-analysis of the deposited data

Results flagged for a closer look

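Of the 88 genes named by rule, 64 could be tested in both organs and 32 had a shoot difference that differed from the root difference by the limma interaction test (adjusted p under 0.05, 3 arrays per group), against 14.0% of all 11867 probe sets. These genes were chosen for large shoot differences, which favours such a gap, so the 32 of 64 is a description. Values below are the shoot difference less the root difference, caesium-treated minus potassium-starved, on the log2 scale.

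Among genes higher in potassium-starved shoots the widest gaps were those of CML41 (-3.64 ± 0.36), SAL2 (-3.43 ± 0.42) and AT2G32190 (-3.35 ± 0.53), each with a root difference near 0 (-0.04, 0.07 and 0.22). XTH19 (-3.24 ± 0.34) was instead higher under caesium in roots. Further such genes were AT2G23120 (-3.16), AT3G47380 (-2.92), EXLA1 (-2.86), AT5G52390 (-2.85), AT1G05340 (-2.82), AT1G72240 (-2.62), the dehydrin LTI30 (-2.56), AT4G19200 (-2.54) and AT2G41410 (-2.20). Smaller gaps were those of CML38 (-1.75), NDB2 (-1.74), ATPMEPCRB (-1.71), bZIP44 (-1.45), AT1G68570 (-1.41), ATG8D (-1.02) and the mitochondrial gene ccb206 (-1.01).

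Among genes higher in caesium-treated shoots the widest gap was that of AT2G16660 (3.18 ± 0.34), whose root difference had the opposite sign (-0.97). The plastid genes psaA (2.39) and rpl22 (2.06) followed, with AT1G15290 (2.03), AT5G40450 (1.79), AT1G22930 (1.70), CYP71B34 (1.68), GT72B1 (1.51), SWEETIE (1.36), bHLH121 (1.00), TRZ3 (0.88) and AT2G26690 (0.80).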

How the results depend on the processing

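Dropping 1 shoot array in turn gave between 2102 and 3818 called probe sets, 1351 to 2524 higher in caesium-treated shoots and 751 to 1294 higher in potassium-starved shoots. Centring each array on its median gave 1532 and 2155, and turned the median difference over all probe sets from 0.13 to -0.065; it was 0.022 with no filter and 0.018 with quantile normalization. The replicate number as a block left all 3885 calls in place, and for the interaction with organ it gave 2775 against 1660; leaving out 1 treated array gave 841 to 1946, and leaving out the repeat-titled root arrays 756. The share of calls with the control nearer to or beyond the caesium-treated mean was 83.39% with 64 added to the signal, 83.11% with the replicate block and 79.15% to 89.15% without 1 array. The long-minus-short gap was 0.56 with 64 added. Calls over the gene lists numbered 92, and 46 to 89 without 1 array. Of 163 genes called and chosen by the rule, for size or as members of the added families, 163 passed with the block, 142 after centring, 149 after quantile normalization, 109 without potassium-starved replicate 2 and 111 without caesium-treated replicate 1, all in the same direction. The cause was not tested. Signals near the floor of 26.7 limit differences of dim genes.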
